A study of Homo sapiens with 6 samples.

Results

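The GADD45 family consists of 3 paralogous genes, GADD45A, GADD45B and GADD45G. They were measured by 6 probe sets, 1 for GADD45A, 4 for GADD45B and 1 for GADD45G, out of 44988 probe sets on the array that name a single gene symbol. Every probe set naming only one of these genes was taken, and 0 probe sets named a member together with another gene. The family was chosen by the measured signals themselves, because GADD45A and GADD45B were lower on the AAPK than on the DMSO arrays. Its differences in that comparison are therefore given as a description, with no test. Gene expression had been profiled on 6 Affymetrix arrays, 3 of cells given AAPK and 3 of cells given the vehicle DMSO. AAPK is a code name, and the series title calls the compound a dual inhibitor of Aurora A and PLK-1, both kinases of mitosis. The treatment field gives 10 µM and 48 h and reads the same for both groups. Both groups were labelled as HCT-116, a human colorectal carcinoma line, grown in medium with fetal bovine serum and described as high in Aurora-A and PLK-1. The labels do not say whether the 3 samples of a group were separate cultures, so the spread between them may be technical.

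GADD45 proteins are small, acidic, nuclear proteins without known enzymatic activity, and they act by binding other proteins. They bind and activate the kinase MAP3K4, which feeds the p38 and JNK stress kinases. They also inhibit the cyclin B1-CDK1 complex at the entry to mitosis, bind the replication clamp PCNA, and recruit repair factors during active DNA demethylation. GADD45A is induced by DNA damage and by amino acid and endoplasmic reticulum stress. GADD45B is induced by NF-kB and TGF-beta signalling, and GADD45G by cytokines and differentiation signals.

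Markers fixed for colon epithelium ran from very bright to very dim. KRT18 and KRT8, the keratins of simple epithelia, gave some of the highest signals on the array, with 99.7% and 97.8 to 99.4% of probe sets below their 2 and 8 probe sets. All of these keratin sets carry the suffix _x_at, so their probes may also bind other transcripts. EPCAM, an epithelial adhesion molecule, had 3 probe sets with mean log2 signals of 3.36 to 3.42, and only 1.80 to 2.41% of probe sets lay lower. CDH1, E-cadherin, had means of 4.09 and 5.11 on its 2 probe sets. For CDH1 at most 24.4% of probe sets lay lower, and for the keratin KRT19 it was 22.8%. Signals of different probe sets depend on their probes as well as on the transcript: the 2 sets of CDX1, an intestinal transcription factor, had 64.4% and 10.4% of probe sets below them. The 3 EPCAM sets gave like signals, however. KRT20, LGALS4 and VIL1 were also dim, with at most 20.6%, 15.4% and 10.6% of probe sets lower. The low EPCAM, CDH1 and KRT19 signals are given as values, since no detection call was available to show presence or absence. Whether the cells matched their HCT-116 label was not tested. Of the 12 epithelial markers 3 lay above the median gene, as did 0 of 6 fibroblast, 3 of 5 endothelial and 2 of 5 blood cell markers. Of the epithelial markers 1, KRT8, rose with AAPK (limma adjusted p = 0.0402). Summed over the list, the epithelial signal was 13.31 to 13.40 on the AAPK arrays and 13.22 to 13.27 on the DMSO arrays as log2. Signals were summed before the log2, so KRT18 and KRT8, with means of 12.48 and 11.93, make up most of it. The next brightest marker, CDX1, was at 7.16. None of the 6 fibroblast, 5 endothelial and 5 blood cell markers measured passed limma's threshold, with 0, 1 and 0 of them at an unadjusted p under 0.05. The part of cell identity in the values below was not tested.

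GADD45A lies on chromosome 1 (67685201 to 67688334, assembly GRCh38.p14) and was read by probe set 11717039_a_at. Its log2 signals were 8.69, 8.86 and 8.62 on the AAPK arrays, against 10.23, 10.16 and 10.25 on the DMSO arrays. All AAPK arrays were low and all DMSO arrays high, and a gap of 1.29 log2 units separated the nearest pair of arrays. The means were 8.72 ± 0.13 with AAPK and 10.21 ± 0.05 with DMSO (SD, n = 3 each). The difference was -1.49 ± 0.07 (AAPK minus DMSO, moderated SE), which is a signal 2.80-fold lower with AAPK. Among the 44988 single-symbol probe sets this was the 11th largest difference downward, and among 18132 genes, each by its brightest probe set, GADD45A stood 4th. With a single probe set, no second reading of GADD45A was available for comparison. In these bulk samples, fewer cells with the transcript and less of it per cell cannot be told apart.

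GADD45B lies on chromosome 19 (2476127 to 2478257, GRCh38.p14), and its 4 probe sets did not give the same picture. On the brightest, 11759525_at, the log2 signals were 8.68, 8.58 and 8.48 with AAPK, against 9.25, 9.28 and 9.31 with DMSO. On 11757865_a_at they were 7.34, 7.32 and 7.24 with AAPK, against 7.83, 7.78 and 7.77 with DMSO. On both, every AAPK array was lower than every DMSO array, by at least 0.56 and 0.43 log2 units. The differences were -0.69 ± 0.06 and -0.50 ± 0.05, or 1.62-fold and 1.41-fold lower with AAPK.

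The other pair of GADD45B probe sets hardly differed between the groups. On 11763624_x_at the log2 signals were 6.56, 6.60 and 6.61 with AAPK, against 6.63, 6.68 and 6.64 with DMSO, a difference of -0.06 ± 0.05. The suffix _x_at marks a probe set whose probes may also bind other transcripts. Here the groups stood apart by only 0.03 log2 units, about the SD of 0.02 and 0.03 within the AAPK and DMSO groups. On 11764031_at the signals were 6.50, 6.59 and 6.50 with AAPK, against 6.65, 6.60 and 6.53 with DMSO, and the groups overlapped. These dimmer sets lay near the middle of the array, with 52.8% and 51.6% of probe sets below them, against 91.3% and 72.4% for the brighter sets. Averaged over all 4, GADD45B was at 7.25 ± 0.04 with AAPK and 7.58 ± 0.02 with DMSO, a difference of -0.33 in place of the -0.69 of the brightest set. Where in the transcript each probe set lies was not analysed here.

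GADD45G lies on chromosome 9 (89605012 to 89606555, GRCh38.p14) and was read by 11756314_a_at. Its log2 signals were 3.97, 3.96 and 4.01 on the AAPK arrays, against 3.75, 3.87 and 3.74 on the DMSO arrays. The direction was opposite to that of its paralogs, with every AAPK array above every DMSO array by 0.09 log2 units or more. The difference was 0.19 ± 0.05, or 1.14-fold higher with AAPK. The signal was among the dimmest of the array, with 8.11% of probe sets below it. The table holds no detection call, so whether GADD45G was above background cannot be said. The 4499 probe sets in the lowest 10% of signal had a median difference of -0.01, with quartiles at -0.06 and 0.03.

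Over the 6 probe sets of the family, AAPK lay below DMSO without overlap on 4, where 15.2% of all probe sets did so, and above it without overlap on 1, where 14.3% did. Since the family was chosen for its direction, these counts describe it and show nothing further.

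**Figure D1:**
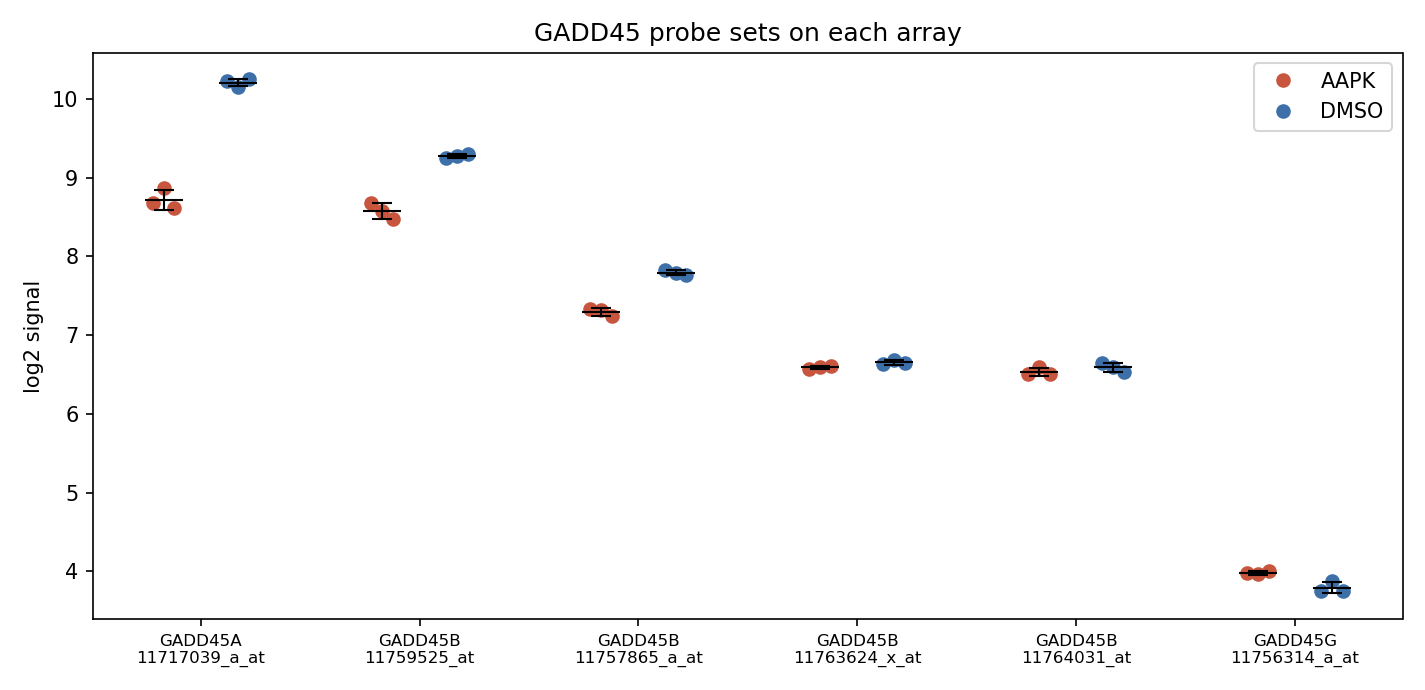
Log2 signal of the 6 GADD45 probe sets on each array, AAPK (red, left of each pair) and DMSO (blue), with the mean and SD of 3 arrays in black. GADD45A has the widest gap, 8.62 to 8.86 with AAPK against 10.16 to 10.25 with DMSO, and the dimmer pair of GADD45B sets has almost none.

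**Figure D2:**
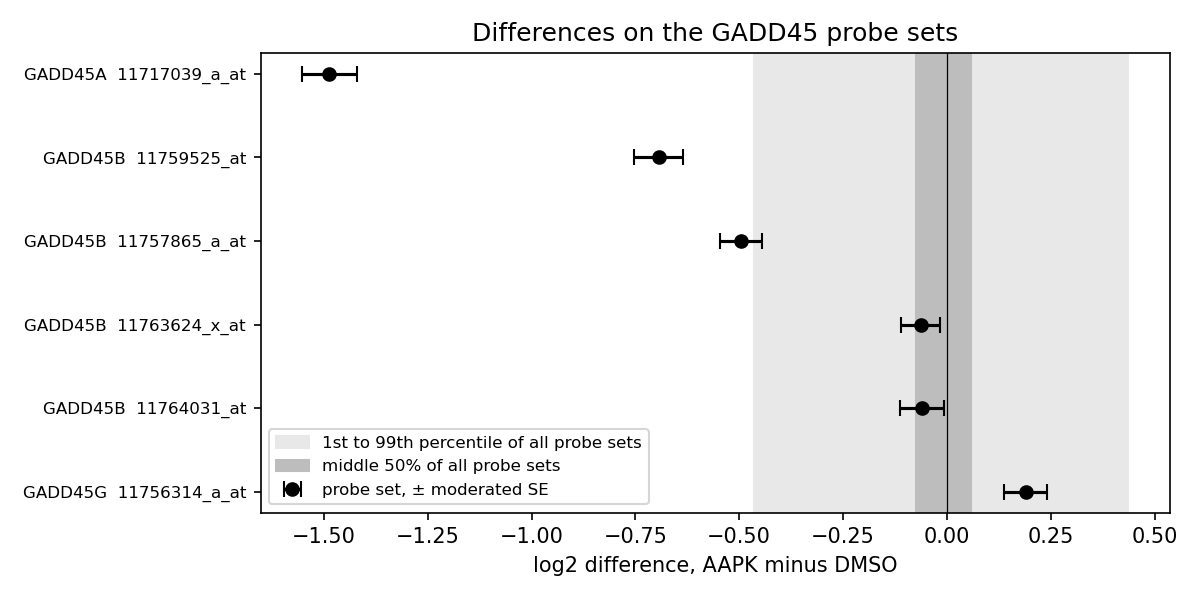
Log2 difference (AAPK minus DMSO) of each GADD45 probe set with its moderated SE, over grey bands for all 44988 single-symbol probe sets. GADD45A at -1.49 and the brighter GADD45B sets at -0.69 and -0.50 lie below the 1st percentile of -0.46, while GADD45G at 0.19 lies between the upper quartile of 0.06 and the 99th percentile of 0.44.

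RefSeq promoter sequences (GRCh38.p14) were matched for 2 of the 3 genes, GADD45B and GADD45G. They are shown because these paralogs had opposite directions on their brightest probe sets. The 250 bases before each gene's start are printed 5′ to 3′ on the plus strand, chr19:2475877-2476126 for GADD45B and chr9:89604762-89605011 for GADD45G, with motif matches in capitals.
GADD45B: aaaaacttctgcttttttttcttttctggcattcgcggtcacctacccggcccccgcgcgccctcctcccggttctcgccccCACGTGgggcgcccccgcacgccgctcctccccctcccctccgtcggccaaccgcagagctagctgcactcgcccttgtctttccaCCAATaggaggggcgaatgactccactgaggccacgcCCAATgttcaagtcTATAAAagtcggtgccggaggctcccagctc
GADD45G: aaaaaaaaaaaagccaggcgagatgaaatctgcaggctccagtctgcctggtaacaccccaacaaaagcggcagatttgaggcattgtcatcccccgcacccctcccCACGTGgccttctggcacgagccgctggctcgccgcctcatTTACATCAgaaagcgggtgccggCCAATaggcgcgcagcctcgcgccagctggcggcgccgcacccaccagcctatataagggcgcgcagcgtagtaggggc
Both strands were searched for the CCAAT box, the TATA box as TATAAA, the E-box as CACGTG and the GC box as GGGCGG. The core of the C/EBP-ATF response element, which ATF4 binds together with C/EBP factors, was searched as TGATGNAA, the core of the cAMP response element as TGACGT and that of the octamer as ATTTGCA. GADD45B held 2 CCAAT matches, 1 TATAAA and 1 CACGTG. GADD45G held 1 CCAAT, 1 CACGTG and, on the minus strand 102 to 95 bases before the start, 1 TGATGNAA. None of these matches overlap, and the other motifs had no match in either window. The TATA box was searched only as TATAAA, so variants such as the TATATAA in the GADD45G window were not counted. Of 35116 RefSeq promoter windows of this length, 32.0% held CCAAT, 10.7% TATAAA, 6.34% CACGTG and 3.14% TGATGNAA. Matches of the remaining motifs were held by 7.10% (TGACGT), 3.67% (ATTTGCA) and 42.6% (GGGCGG).

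The genes around the family were taken from 6 lists, of binding partners, stress kinases, transcription regulators, demethylation factors, other growth-arrest genes and the cyclin B1-CDK1 switch. They were drawn up with earlier results of these data known, so the counts and shares describe the lists and test nothing. Of 98 genes on the lists 89 were measured. With AAPK 14 rose and 20 fell, 38.2% together (limma, Benjamini-Hochberg adjusted p at 0.05). Of all 18132 genes 15.4% passed, 8.11% higher and 7.26% lower. On every list most genes were brighter than the median gene, from 12 of 18 (p38 and JNK) to 13 of 14 (the switch). A fit of the brighter genes alone, those not below the median signal, called 1727 higher and 1310 lower. The main fit over all genes called 1471 and 1317. In that separate fit bright genes thus passed at a share above 15.4%. It had its own variance estimate and adjustment, so the share of bright genes that passed in the main fit is not given. No background matched for signal was computed for any list. The median log2 difference was -0.03 over these genes and -0.02 over all genes. The count that rose depended on single arrays: it was 9 without AAPK replicate 2, 7 without DMSO replicate 1 and 9 without DMSO replicate 2. It was also 9 when the probe sets of a gene were averaged.

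Among 13 measured binding partners, 3 rose and 1 fell, 30.8% together against 15.4% of all genes, with a median of 0.00. AURKA, which encodes the Aurora A kinase that GADD45A is known to bind and restrain, was at 10.59 ± 0.02 with AAPK and 9.79 ± 0.02 with DMSO, a rise of 0.80 ± 0.04 (adjusted p = 1.79e-06). CCNB1, cyclin B1, rose by 0.86 ± 0.07 (adjusted p = 3.59e-05). CDK1, its kinase, rose by 0.17 ± 0.05 (adjusted p = 0.0479), a call lost in 9 of 16 alternatives, among them all 6 that leave out an array. PPARG, a nuclear receptor, fell by 0.31 (adjusted p = 0.00697). MAP3K4, the kinase that GADD45 proteins activate, had a difference of -0.14 ± 0.07 and did not pass (adjusted p = 0.231), although without AAPK replicate 2 it did (-0.21, adjusted p = 0.0432; 0.0432 to 0.501 over its alternatives). CDKN1A, the cyclin-dependent kinase inhibitor p21, was at 9.08 ± 0.03 with AAPK and 9.07 ± 0.03 with DMSO (adjusted p = 0.941).

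In the p38 and JNK cascade 2 of 18 measured genes rose and 0 fell, 11.1% against the 15.4% of all genes. MAP2K4, a kinase that activates JNK, rose by 0.26 ± 0.06 (adjusted p = 0.0121), a call lost without DMSO replicate 1 (adjusted p = 0.0545; 7.54e-04 to 0.0545 over its alternatives). MAP3K7, the kinase TAK1, rose by 0.17 ± 0.05 (adjusted p = 0.0416), a call lost in 9 of 16 alternatives and kept without AAPK replicate 1 as the only array left out. At an unadjusted p under 0.05, 3 further genes were lower and 1 was higher. With limma's threshold 1 gene fell without AAPK replicate 2 or DMSO replicate 2, and 0 rose without DMSO replicate 1.

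Of 22 measured transcription regulators of GADD45 genes, 7 fell and 1 rose, 36.4% together against 15.4% of all genes, with a median of -0.11. CEBPB, a C/EBP family factor, was at 9.22 ± 0.06 with AAPK and 10.40 ± 0.04 with DMSO, a fall of 1.18 ± 0.05 on the log2 scale (adjusted p = 5.04e-07). ATF4, the main factor of the amino acid stress response and an activator of GADD45A, was at 11.94 ± 0.05 with AAPK and 12.50 ± 0.01 with DMSO (difference -0.55 ± 0.05, adjusted p = 3.64e-05). ATF4 was read by 1 probe set, of the _x_at kind whose probes may also bind other transcripts. SP1, a GC-box factor, fell by 0.40 (adjusted p = 2.62e-04). BRCA1, a repair protein that also induces GADD45A, fell by 0.38 (adjusted p = 8.24e-04), or by 0.20 as the mean of its 5 probe sets. The gene that rose, chosen after its value was seen, was SMAD2, a TGF-beta signal transducer, at 0.37, but the mean of its 7 probe sets was 0.03. The other SMAD genes of the list went differently. SMAD3 fell by 0.25 (limma adjusted p = 0.00906), with -0.16 as the mean of its 5 probe sets, and SMAD4 was at -0.03 (limma adjusted p = 0.685). Of the NF-kB subunits, also named after their values were seen, RELA was at -0.13 (adjusted p = 0.0725) and NFKB1 at -0.01 (adjusted p = 0.916).

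Of 11 measured demethylation factors 3 fell and 1 rose, 36.4% together against 15.4% of all genes, with a median of -0.11. MBD4, a glycosylase that removes mismatched thymine, fell by 0.51 ± 0.07 (adjusted p = 5.57e-04). XPC, which recognises damage for nucleotide excision repair, fell by 0.37 (adjusted p = 9.77e-04). TDG, the thymine DNA glycosylase, rose by 0.41 (adjusted p = 8.82e-04), with 0.23 as the mean of its 3 probe sets. TET1, an enzyme that oxidises methylcytosine, fell by 0.18 (adjusted p = 0.0338), a call lost in 10 of its 14 alternatives, among them those without AAPK replicates 2 or 3 and DMSO replicates 1 or 2.

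Other genes named for growth arrest or induced by stress showed the widest falls, 9 of 19 measured against 2 that rose, with a median of -0.21. Both directions together made 57.9% of the list, against 15.4% of all genes. DDIT3, known as GADD153 and encoding the stress factor CHOP, was at 8.35 ± 0.06 with AAPK and 10.58 ± 0.07 with DMSO (-2.23 ± 0.05, adjusted p = 1.88e-08). TRIB3, a pseudokinase, fell by 1.67 (adjusted p = 3.74e-08), SESN2, a leucine-sensing sestrin, by 1.33 (adjusted p = 2.53e-07) and DDIT4, an inhibitor of mTORC1, by 1.12 (adjusted p = 5.04e-07). PPP1R15A, known as GADD34 and encoding a phosphatase subunit that reverses the stress response, was at 8.39 ± 0.13 with AAPK and 8.60 ± 0.09 with DMSO. Its difference of -0.21 ± 0.07 did not pass (adjusted p = 0.0739) but did in 6 of 16 alternatives. The genes that rose, chosen after their values were seen, were SESN1 and PLK2, both at 0.18; without AAPK replicates 1 or 2, or without DMSO replicates 1 or 3, 0 members of the list passed upward, and without AAPK replicate 3 or DMSO replicate 2 only 1 did.

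At the cyclin B1-CDK1 switch, which GADD45 proteins restrain, 8 of 14 genes rose and 0 fell by limma's adjusted p, with a median of 0.19. The share that rose was 57.1%, where 8.11% of all genes rose and 7.26% fell. At an unadjusted p under 0.05, 1 gene of the list was lower. It was PKMYT1, an inhibitory kinase of CDK1 named after its value was seen, at -0.14 (limma adjusted p = 0.0537). The list holds inhibitors of the switch beside its activators, so the count gives no direction for the switch itself. CHEK2, a checkpoint kinase also named after its value was seen, was among those that rose, at 0.24, but its other probe set was at -0.02. In 6 of 16 alternatives (quantile normalisation, either signal filter, averaged probe sets, an intensity trend and array weights) 1 gene of the list fell. Beside CCNB1, AURKA and CDK1, which also stand among the partners, CCNB2, a second B-type cyclin, rose by 0.31 ± 0.05 (adjusted p = 0.00204). BORA, the cofactor with which Aurora A activates PLK1, rose by 0.24 (adjusted p = 0.0293), a call lost in 5 of its 15 alternatives, among them those without AAPK replicates 2 or 3 and DMSO replicates 1 or 2. Without DMSO replicate 1 or DMSO replicate 2 the list had 5 that rose, and also 5 when the probe sets of a gene were averaged.

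**Figure D3:**
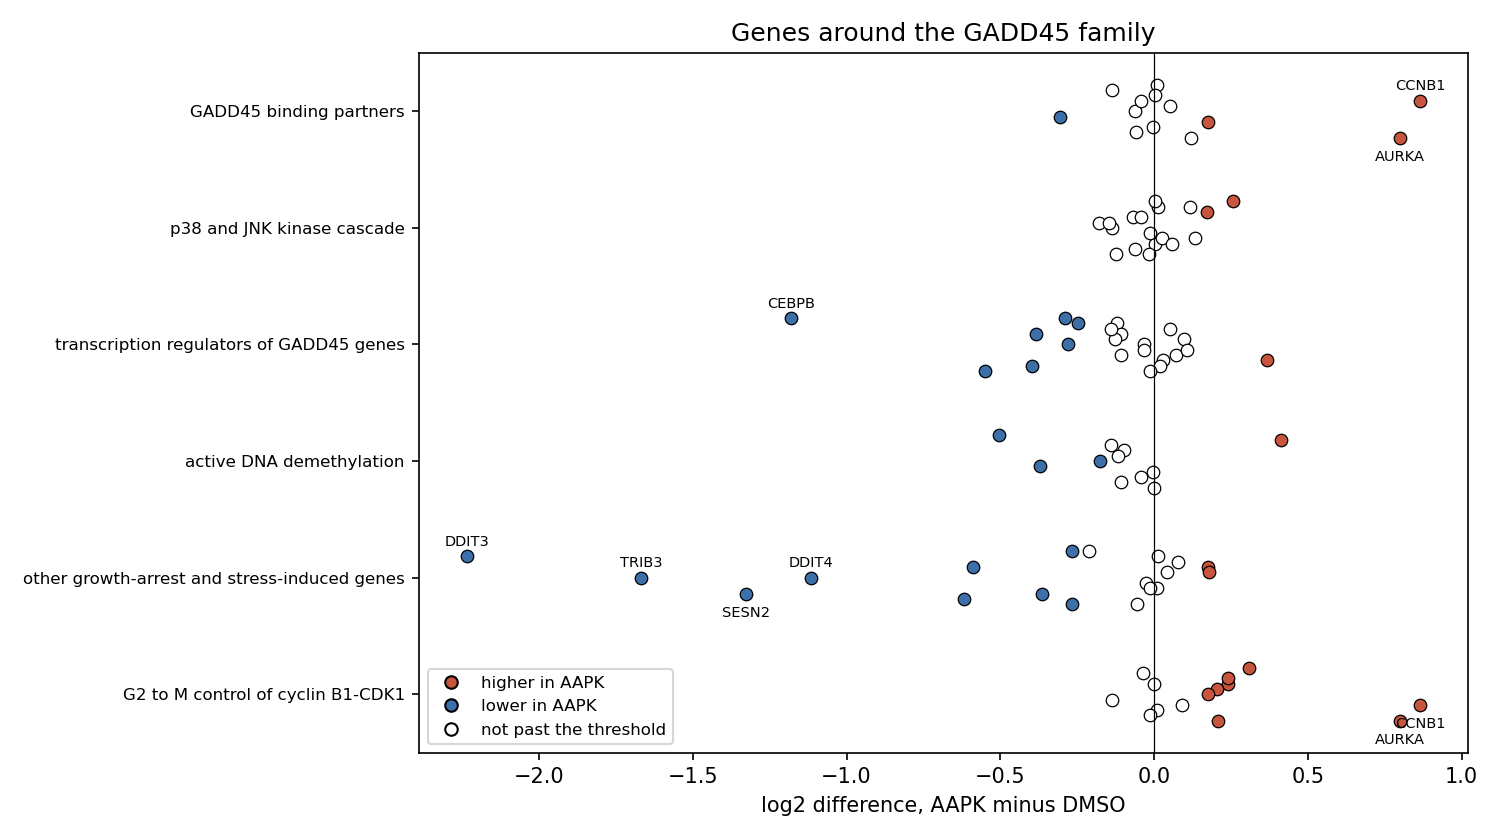
Log2 difference (AAPK minus DMSO) of each measured gene on the 6 lists, red where it rose and blue where it fell past limma's adjusted p of 0.05, white where it did not pass. Points are spread vertically for legibility. The falls reach -2.23 for DDIT3 among the growth-arrest and stress-induced genes, while the p38 and JNK kinases stay close to 0.

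The genes whose signals followed GADD45A most closely over the 6 arrays were CAMTA2, RNF144B and CEBPG. Likeness was the root mean square difference of log2 signals after each gene was centred on its own mean, and it was 0.08, 0.09 and 0.10 for these 3 genes. CEBPG, a bZIP factor that pairs with ATF4, was at 8.08 ± 0.08 with AAPK and 9.39 ± 0.07 with DMSO (SD, n = 3 each), and its other probe set differed by -1.13. CAMTA2, a transcription activator, and RNF144B, a ubiquitin ligase, matched only on their brightest probe set, since the other sets were at 0.07 for CAMTA2 and at -0.28 and -0.08 for RNF144B. Nearest to the brightest GADD45B set were CEP72, a centrosomal protein, ZNF770, a zinc finger protein, and AARS1, the alanyl-tRNA synthetase, at 0.05, 0.06 and 0.06. AARS1 was at 10.12, 10.12 and 9.92 with AAPK, against 10.67, 10.70 and 10.64 with DMSO, and the second probe sets of CEP72, ZNF770 and AARS1 differed by -0.44, -0.10 and -0.57. The likeness is mostly that of the difference between the groups, which all these profiles share.

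**Figure D4:**
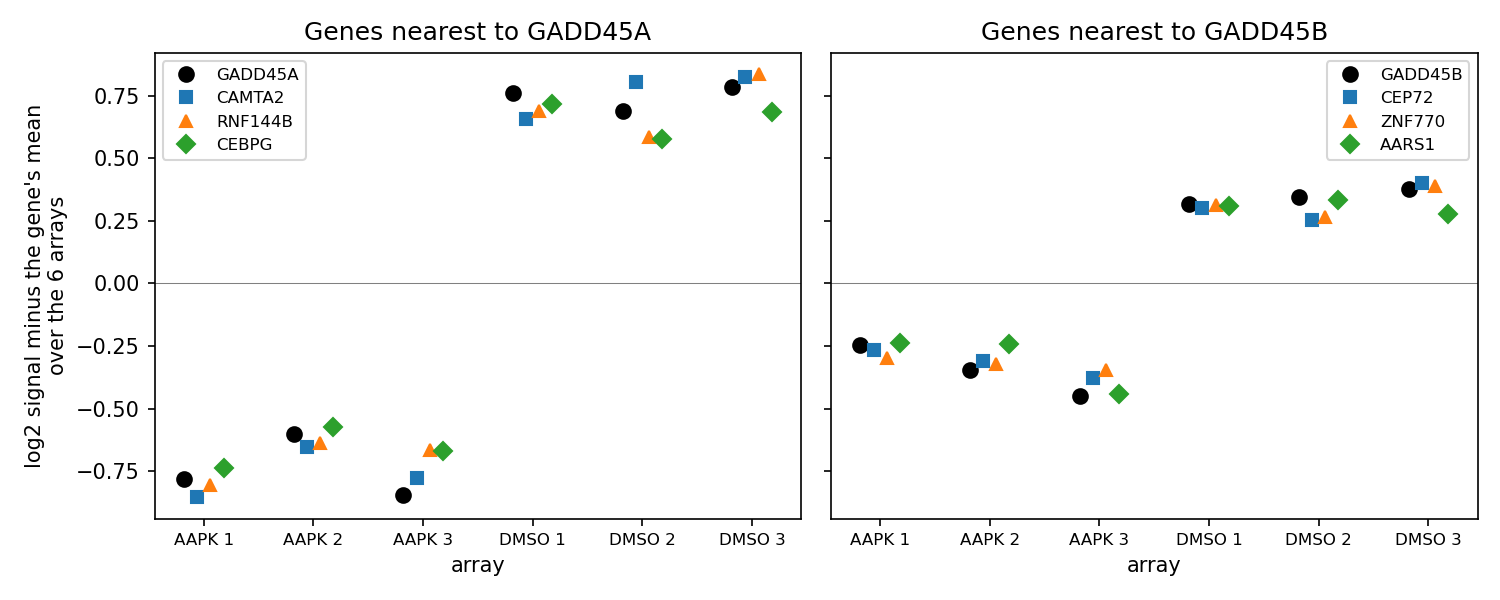
Log2 signal of GADD45A (left panel) and GADD45B (right panel) and of the 3 genes nearest to each, centred on each gene's mean over the 6 arrays, with the AAPK arrays left of the DMSO arrays. All 4 profiles of each panel step down with AAPK, by -1.32 to -1.52 in the GADD45A panel and by -0.61 to -0.69 in the GADD45B panel.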

How the data were processed

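The deposited table holds the authors' log2 signals for 49395 probe sets on 6 arrays. That the scale is log2 was read from the values, and no method of normalisation between arrays is given in the sources used here. Precision is limited by the 3 arrays per group. Groups and replicate numbers came from the sample titles. Of the probe sets, 102 were Affymetrix controls, 2473 others named no gene, 1832 named several and 44988 named 1 symbol in the platform's gene table. Member differences and moderated standard errors came from limma 3.58.1 in R 4.3.3, using lmFit with only the group in the model and eBayes, on all 44988. Other genes were tested on their brightest probe set over 18132 genes, two-sided, with Benjamini-Hochberg adjustment and a threshold of 0.05. The fit was tested on simulated data. The members, lists, motifs and tests were chosen with earlier results of these data known. By rule the text names AURKA, ATF4, DDIT3, PPP1R15A, CDKN1A, MAP3K4, CDK1 and CCNB1, the 4 largest changes past the threshold of each list, and the 3 nearest profiles of GADD45A and GADD45B. List entries without a single-symbol probe set, 1 gene of that rule among them, are not analysed here.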

Additional observations from a re-analysis of the deposited data

How the results depend on the processing

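Over 16 alternatives (quantile normalisation, median centring, a 25th percentile or median filter on signal, probe sets averaged by gene or the set with the largest spread, all probe sets fitted, an intensity trend, array weights, the replicate block and each array left out), GADD45A stayed between -1.56 and -1.43 and GADD45B between -0.74 and -0.33, the last with the mean of its probe sets. GADD45G ran from 0.17 to 0.23 over 14, since both signal filters removed it. With an array left out, GADD45A ran from -1.56 to -1.43, GADD45B from -0.74 to -0.64, GADD45G from 0.17 to 0.23, genes that rose from 1004 to 1308, genes that fell from 891 to 1142, list genes that rose from 7 to 11 and list genes that fell from 17 to 19. The mean of probe sets gave 9 list genes that rose. Over all genes, median centring gave 1738 that rose and 1059 that fell, and quantile normalisation 1297 and 1373. An intensity trend gave 1780 that rose and 1470 that fell, and array weights 1767 and 1701. The array medians were 6.46 to 6.47 with AAPK and 6.48 to 6.50 with DMSO. Deviations of same-numbered arrays correlated at -0.02, -0.23 and -0.05. With 3 arrays per group and no different-numbered arrays compared, these values cannot show whether the replicate numbers paired the samples. With the replicate block 1116 genes rose and 983 fell, and 10 list genes rose and 19 fell. Over the tested genes named by rule, 319 of their values under an alternative kept direction and call, 34 lost the call and 7 gained it. The remaining 4 were those of CDKN1A, which was at 0.0080, passed in none of its 16 alternatives and changed sign: it was at -0.035 with quantile normalisation and ran from -0.0024 to 0.028 with an array left out, below 0 without AAPK replicate 1, AAPK replicate 3 or DMSO replicate 3.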
